A study of Mus musculus with 8 samples.

Results

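The genes described here are Epha2 and 9 other Eph receptors and ephrins in the jejunal mucosa of Adipoq-F2-KO mice and floxed controls. These are 10 genes among the 56980 gene identifiers in the count tables: the receptors Epha1, Epha2, Epha4, Ephb2, Ephb3 and Ephb4 and the ephrins Efna1, Efna4, Efnb1 and Efnb2. Members were chosen by gene symbol, and Epha2 was chosen because its level was lower in the knockout, so its genotype difference is given as a description without a test. The family has 14 receptors and 8 ephrins on the list used here, which leaves 12 genes outside the 10.

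Polyadenylated RNA was sequenced from scrapings of the jejunal mucosa, with 4 libraries for each genotype. Adipoq-F2-KO mice carried floxed alleles of Ffar2, the gene of the short chain fatty acid receptor FFA2, with Cre recombinase driven by the adiponectin promoter. The floxed controls (FFA2 fl/fl) were littermates that carried the floxed alleles without the Cre. All mice were males fed chow until 12 weeks of age and then a Western diet with 10% fructooligosaccharides (FOS) for 2 weeks. Sample characteristics give thermoneutral housing, whereas the growth protocol gives ambient temperature. Because adiponectin-Cre acts in adipocytes, Ffar2 in the mucosa does not check the deletion, and it held 2 to 18 raw counts in floxed libraries and 3 to 13 in Adipoq-F2-KO libraries.

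Eph receptors are receptor tyrosine kinases whose ligands, the ephrins, are themselves bound to the surface of neighbouring cells, so that signals can pass into both cells at a contact. A-type ephrins are held by a lipid anchor and B-type ephrins span the membrane. In the gut, EphB receptors in crypts and ephrin-B ligands toward the villus are known for keeping epithelial cells in their places, and EphA2 is a receptor of epithelial cells whose best known partner is ephrin-A1.

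Promoters are shown for the genes on which the comparison of genotypes turns, namely Epha2, Epha1 as the most abundant member and Efnb2 as the ligand gene with the smallest unadjusted p among the members tested. Each run is the 250 bases before the RefSeq transcription start on GRCm38.p6, written 5′ to 3′ on the strand of the gene. Capitals mark matches on either strand to a GC box (GGGCGG), a cyclic AMP response element (TGACGTCA) or a TATA box (TATAAA).
Epha2, chr4:141300971-141301220, + strand: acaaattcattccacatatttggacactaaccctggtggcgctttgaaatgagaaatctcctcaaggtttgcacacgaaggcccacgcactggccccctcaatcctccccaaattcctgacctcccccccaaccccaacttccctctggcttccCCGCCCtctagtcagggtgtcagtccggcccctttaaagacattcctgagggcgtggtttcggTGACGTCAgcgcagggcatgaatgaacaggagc
Epha1, chr6:42373269-42373518, - strand: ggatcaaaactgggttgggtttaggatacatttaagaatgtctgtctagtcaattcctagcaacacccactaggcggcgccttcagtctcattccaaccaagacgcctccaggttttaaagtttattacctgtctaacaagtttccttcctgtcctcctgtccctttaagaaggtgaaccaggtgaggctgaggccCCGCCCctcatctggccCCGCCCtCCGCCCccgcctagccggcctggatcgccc
Efnb2, chr8:8661243-8661492, - strand: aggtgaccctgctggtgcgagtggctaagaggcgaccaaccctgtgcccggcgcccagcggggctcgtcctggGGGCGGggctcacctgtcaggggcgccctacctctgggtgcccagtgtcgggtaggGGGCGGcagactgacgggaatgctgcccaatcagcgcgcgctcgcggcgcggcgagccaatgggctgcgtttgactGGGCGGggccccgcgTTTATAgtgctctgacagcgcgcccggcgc

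The Epha2 run held 1 GC box, 96 to 91 bases before the start, and 1 cyclic AMP response element, 33 to 26 bases before it. That element was searched for after the Epha2 sequence had been read, and none of the windows of the other 9 members held it. Among 32851 RefSeq windows of the same length, 1.55% held the element, 32.7% a GC box and 12.4% a TATA box. Epha1 and Efnb2 each held 3 GC boxes, and Efnb2 was the only member with a match to the TATA box, 30 to 25 bases before the start. That match is on the strand opposite to the gene and reads TTTATA as printed. No member had an AP-1 motif (TGAGTCA, in 4.46% of windows) or a TCF motif (ATCAAAG, in 3.21%), and 5 of 10 had an E-box (CANNTG, in 66.2%, not in capitals). The searched motifs did not overlap each other in these 3 runs. All 10 members matched a window, Efna1 a pair of them. The bases just after the start lay in a GENCODE transcript for Epha1 and Efnb2 but not for Epha2. The distances given for Epha2 thus hold for the RefSeq start only. The GC content was 55.6% for Epha2, 54.4% for Epha1 and 72.0% for Efnb2, against a median of 52.4% over all windows. These matches describe the letters alone.

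Libraries differed in depth and in tissue content. Total counts ran from 6007654 to 21712776. Floxed libraries 1, 2 and 4 and Adipoq-F2-KO libraries 1 and 2 had at least 10000000 counts. The other 3, floxed library 3 and Adipoq-F2-KO libraries 3 and 4, had fewer than 10000000 counts. The same 3 libraries held Fabp6, the ileal bile acid binding protein, at 523, 140.1 and 942 normalized counts (raw counts over the size factor that DESeq2 gave each library), whereas the other 5 had 0.774 to 3.95. They also had 268 to 415 normalized counts of Slc10a2, the ileal bile acid transporter, against 30.0 to 78.2 in the other 5, and mitochondrial transcripts made up 11.6 to 12.2% of their counts against 4.37 to 10.1%. The enterocyte genes Sis and Fabp2 were abundant in every library, with at least 57292 and 32141 raw counts. The summed level of 14 smooth muscle genes was 36813 in floxed library 3, 14963 in Adipoq-F2-KO library 4 and 3877 to 9376 in the other 6. For some genes, values without 1 or more of these libraries or with the smooth muscle level as a covariate are given beside the result. The part of distal tissue in the results was not tested. Tests were made with DESeq2 over 15986 genes, and an adjusted p below 0.05 was reached by 0.0375% of them.

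Epha2 was lower in the Adipoq-F2-KO mucosa. The receptor had 1828, 1537, 1759 and 2195 normalized counts in floxed libraries 1 to 4 and 1225, 1391, 1075 and 968 in Adipoq-F2-KO libraries 1 to 4. Every Adipoq-F2-KO library lay below every floxed library, as chosen, and this order was seen for 1.02% of all genes tested. The means were 1829.5 ± 273 (SD, n = 4) and 1165 ± 184 (SD, n = 4). The log2 fold change fitted by DESeq2 was -0.65 (SE 0.15), which is 36.1% lower. In bulk tissue, fewer cells that express a gene and less RNA per cell cannot be told apart. In the 5 libraries with at least 10000000 counts the log2 fold change of Epha2 was -0.51 (SE 0.18), without floxed library 3 it was -0.67, and over 16 alternative fits it ran from -0.75 to -0.51. These fits use the counts by which the gene was chosen and are no independent support.

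**Figure D1:**
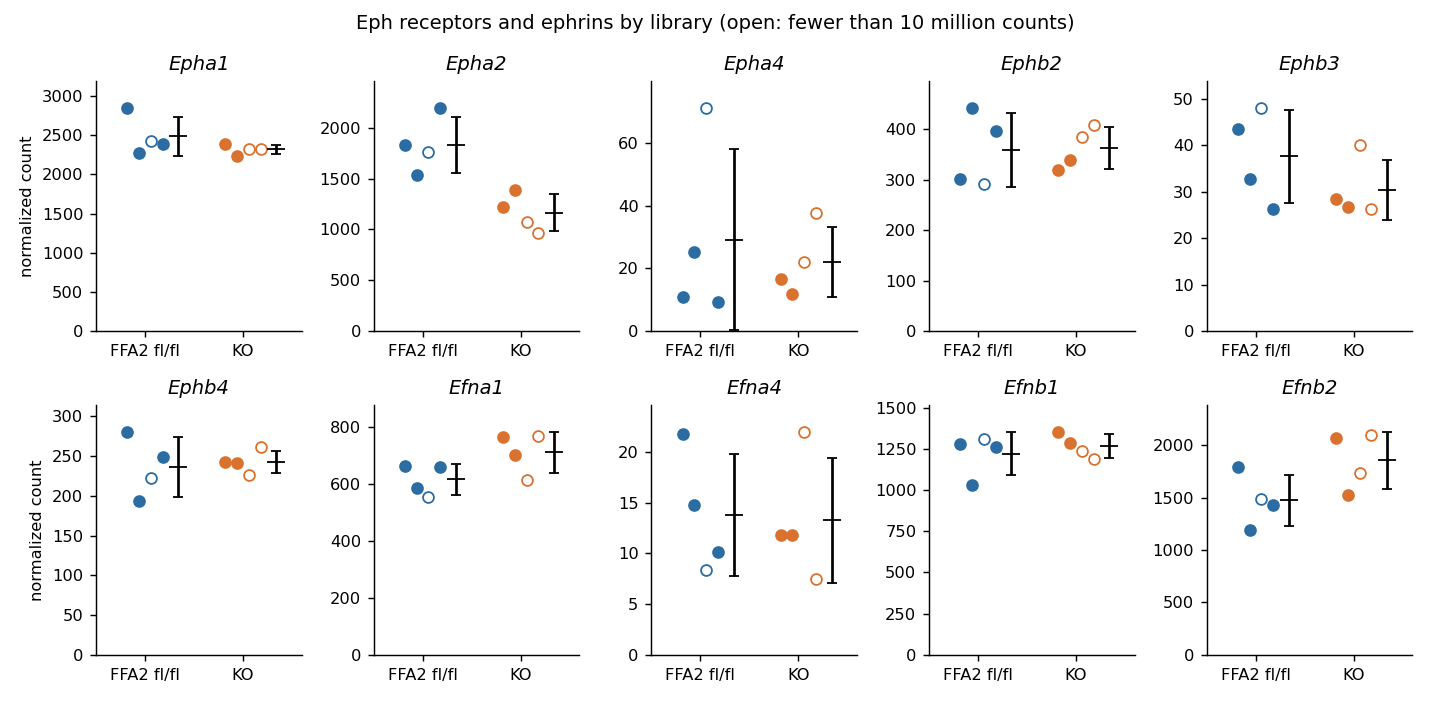
Normalized counts (y axis, from 0, a separate scale for each gene) of the 10 genes in floxed (blue) and Adipoq-F2-KO (orange) libraries, 1 point per library in the order 1 to 4, with mean and SD as a black bar beside them. Open points are the 3 libraries with fewer than 10000000 counts. Epha2 is the only gene of the 10 whose genotypes do not overlap, and it was chosen for that difference.

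The other 9 members were tested, and 0 of 9 reached an adjusted p below 0.05 with DESeq2, each at an adjusted p of 0.9998. By unadjusted p below 0.05, 1 of 9 was higher and 0 were lower, against 1.65% of all genes higher and 1.38% lower. Positive log2 fold changes were found in 5 and negative ones in 4, with a median of 0.00 against -0.01 for all genes tested. Neither edgeR nor limma-voom gave an adjusted p below 0.05 for any of the 9, nor did the remaining alternatives.

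Among the A-type receptors, Epha1, the most abundant per length, did not pass the test. It had 2850.3, 2279, 2428 and 2389.8 normalized counts in floxed libraries and 2390.3, 2238, 2326 and 2322 in Adipoq-F2-KO libraries. The groups overlapped in a narrow range, and the log2 fold change was -0.10 (SE 0.10, 95% interval -0.29 to 0.09, unadjusted p = 0.295, adjusted p = 0.9998, DESeq2). Of its 3928 bp of exons, 236 bp are shared with Zyx on the opposite strand, and since the strand setting of the counting is not stated its count is uncertain to that extent.

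Epha4, a receptor of both A-type and B-type ephrins, was low and variable. Its normalized counts were 10.9, 25.3, 71.1 and 9.29 in floxed libraries and 16.6, 11.8, 22.0 and 37.6 in Adipoq-F2-KO libraries. The highest values of each genotype came from floxed library 3 and Adipoq-F2-KO library 4. The log2 fold change was -0.38 (SE 0.65, unadjusted p = 0.56, DESeq2) with all libraries and 0.47 without floxed library 3. With that library kept, it was 0.07 with the smooth muscle level as a covariate and 0.01 with limma-voom. Its direction therefore changed with the libraries and with the fit.

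The B-type receptors showed no difference past the test. Ephb2, a Wnt target of the crypt, had 302, 442, 291 and 396 normalized counts in floxed libraries and 319.7, 338, 384 and 408 in Adipoq-F2-KO libraries. All 4 Adipoq-F2-KO values lay inside the floxed range, with a log2 fold change of 0.00 (SE 0.17, 95% interval -0.34 to 0.34). Ephb3, also known from the crypt, was found at 26.3 to 48.1 in floxed and 26.3 to 40.0 in Adipoq-F2-KO libraries (log2 fold change -0.31, SE 0.32, unadjusted p = 0.334). Ephb4, the receptor of ephrin-B2 best known from veins, ran from 193 to 281 in floxed and 226 to 261 in Adipoq-F2-KO libraries (log2 fold change 0.04, SE 0.16). The ranges of Ephb3 and Ephb4 overlapped between genotypes. Ephb4 shares 33 bp of exon with Zan on the opposite strand.

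Efna1, the gene of ephrin-A1, had 666, 588, 556 and 662 normalized counts in floxed libraries and 767, 702, 615 and 769 in Adipoq-F2-KO libraries. Thus 3 of 4 Adipoq-F2-KO libraries were above all floxed libraries and Adipoq-F2-KO library 3 was not. The log2 fold change was 0.20 (SE 0.12, 95% interval -0.03 to 0.44, unadjusted p = 0.0844, adjusted p = 0.9998, DESeq2). Efna4, another lipid-anchored ligand, was near the detection limit at 7.52 to 22.0 normalized counts, with 4 to 36 raw counts and a log2 fold change of -0.14 (SE 0.51). It shares 168 bp of exon with 4731419I09Rik on the opposite strand.

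Efnb1, a membrane-spanning ligand, had 1282, 1029, 1311 and 1261 normalized counts in floxed libraries and 1355, 1287, 1235 and 1186 in Adipoq-F2-KO libraries. The ranges overlapped, and the log2 fold change was 0.06 (SE 0.11). Efnb2, the gene of ephrin-B2, had 1789, 1194, 1489 and 1425 normalized counts in floxed libraries and 2065, 1528, 1732 and 2098 in Adipoq-F2-KO libraries. For Efnb2, 2 of 4 Adipoq-F2-KO libraries were above all floxed libraries. Its log2 fold change of 0.33 (SE 0.16, 95% interval 0.02 to 0.64) had an unadjusted p of 0.0357 and an adjusted p of 0.9998 with DESeq2. The unadjusted p of Efnb2 was below 0.05 in 11 of 16 alternatives, and in the 5 deeper libraries the log2 fold change was 0.29 (unadjusted p = 0.192, DESeq2).

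**Figure D2:**
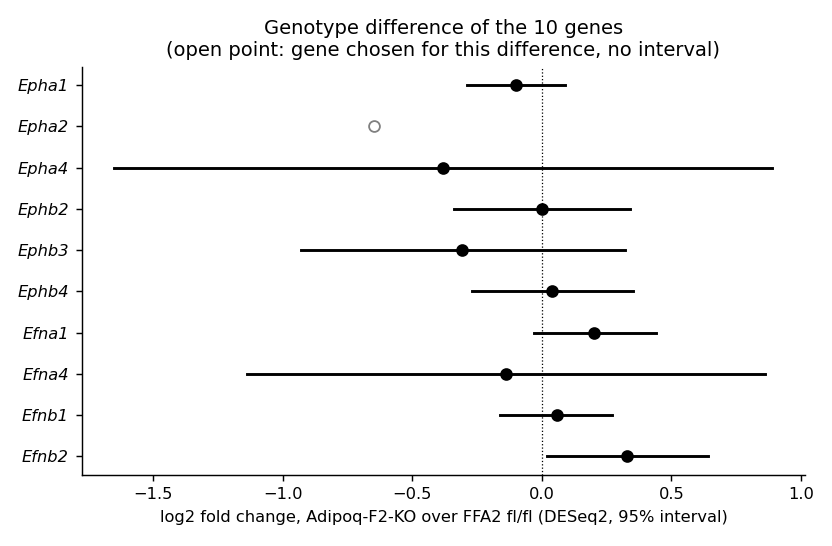
Log2 fold change of Adipoq-F2-KO over floxed libraries (x axis) for the 10 genes, with 95% intervals from DESeq2 for the 9 genes tested. Epha2, at -0.65, is an open grey point with no interval because the gene was chosen for this difference. Among the 9 the interval of Efnb2 alone leaves out 0, at 0.02 to 0.64, and its adjusted p is 0.9998.

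Per length of exon, the members fell into a high and a low set. The median normalized count per kb over the 8 libraries was 600.3 for Epha1, 368 for Efnb1, 363 for Efna1, 313 for Epha2 and 238 for Efnb2. It was 52.2 for Ephb4, 28.6 for Ephb2, 7.39 for Efna4, 4.60 for Ephb3 and 2.40 for Epha4. Neighbours in this order whose ranges over libraries did not overlap were Epha1 and Efnb1, Efnb2 and Ephb4, Ephb4 and Ephb2, and Ephb2 and Efna4. All other neighbours overlapped, so the order of Efnb1, Efna1, Epha2 and Efnb2, and that of Efna4, Ephb3 and Epha4, was not resolved. Epha2 was second in the floxed libraries, with a median of 384 per kb, and the fifth in the Adipoq-F2-KO libraries, with 246. With the longest transcript in place of merged exons, Efnb1 and Efna1 exchanged ranks and the other 8 kept theirs.

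Of the summed per-kb level of all 14 receptors, Epha1 made up a median of 57.2% in floxed libraries and 64.3% in Adipoq-F2-KO libraries. The share of Epha2 was 32.3 to 40.2% in floxed and 22.9 to 31.2% in Adipoq-F2-KO libraries. These shares contain the difference by which Epha2 was chosen and are a description of the same counts. Among the 8 ephrins, Efnb2 had a median share of 22.7% in floxed and 26.4% in Adipoq-F2-KO libraries, with overlapping ranges, and Efna1 and Efnb1 held 31.7 to 41.3% each in every library.

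**Figure D3:**
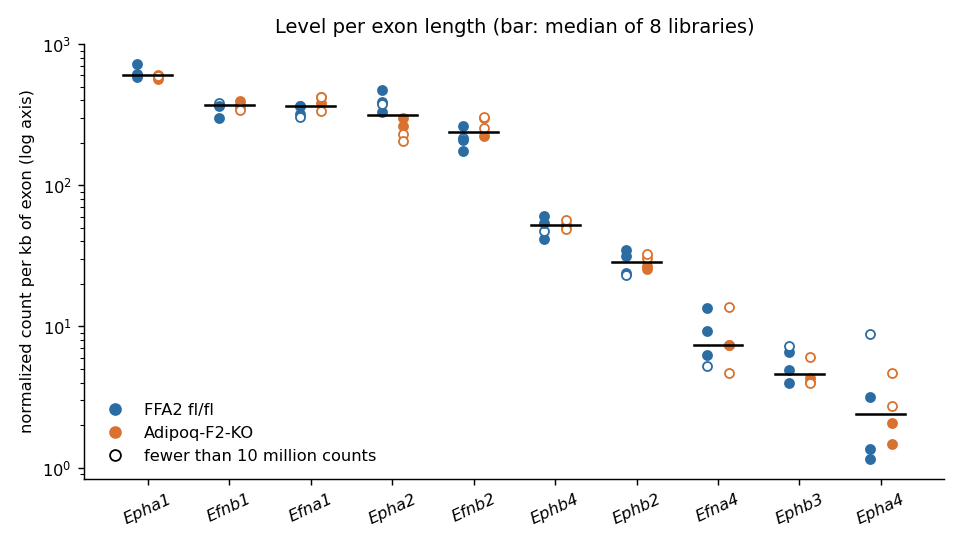
Normalized count per kb of exon (y axis, log scale) of each gene in floxed (blue) and Adipoq-F2-KO (orange) libraries, 1 point per library, open where the library had fewer than 10000000 counts. Bars are medians over 8 libraries. Epha1 lies above the rest, 4 genes lie between 238 and 368, and the other 5 fall to 52.2 and below.

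Outside these 10, 4 family members passed the filter of 10 counts in 4 or more libraries: Epha7, Efna3, Efna5 and Efnb3. None reached an adjusted p below 0.05 with DESeq2 (all 0.9998) and none had an unadjusted p below 0.05. Epha7 and Efna5 were highest in floxed library 3, with 105 and 29.3 normalized counts, and next highest in Adipoq-F2-KO library 4, with 45.1 and 18.8. In the other 6 libraries they ran from 2.00 to 21.7 and from 0.606 to 8.68. Their log2 fold changes were -0.96 (SE 1.21) and -0.10 (SE 1.02) with all libraries, and 0.54 and 1.39 without floxed library 3. The direction of Efna5 also turned without Adipoq-F2-KO library 1 (0.24) or 3 (0.11), and neither gene has a direction that held across the libraries. Efna3 (log2 fold change -0.29, SE 0.52) and Efnb3 (0.10, SE 0.48) stayed at or below 20.0 normalized counts. The remaining 8, which include Epha3, Epha5, Ephb1 and Efna2, did not pass the filter and held at most 10 raw counts in any library.

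Epha4 was highest in the libraries with the highest smooth muscle level. Pearson's r between log2 levels was 0.90 (exact permutation p = 0.00283, Benjamini-Hochberg adjusted p = 0.113 over 40 relations) and Spearman's coefficient was 0.83 (exact permutation p = 0.0154, adjusted p = 0.576). Without the 2 libraries farthest from the median smooth muscle level, r was 0.72. Epha4 also had an r of 0.77 with blood vessel genes (exact permutation p = 0.0249, adjusted p = 0.498), and of 0.88 without the 2 libraries farthest from their median. With villus enterocyte genes its r was 0.70 and with crypt genes 0.49. Floxed library 3 and Adipoq-F2-KO library 4 were also the highest in fibroblast (3582 and 2057) and enteric neuron and glia genes (454 and 310.2). The relation was therefore not particular to smooth muscle. The relations were computed for the 10 members with the summed levels of smooth muscle, blood vessel, crypt and villus enterocyte genes, and 0 of 40 passed at an adjusted p below 0.05, although the 4 relations of Epha2 are not read as tests. Without Adipoq-F2-KO library 2 the relation of Epha4 to smooth muscle passed (exact permutation, adjusted p = 0.0317). Without Adipoq-F2-KO library 4 that of Efna1 to blood vessel genes passed (exact permutation, adjusted p = 0.00794). With all 8 libraries its r was -0.43 (exact permutation p = 0.278, adjusted p = 0.798). Without the 2 libraries farthest from the median blood vessel level it was -0.96. Epha2 had r of -0.14 with smooth muscle, -0.26 with blood vessel, -0.35 with crypt and -0.04 with villus enterocyte genes, given as a description since these levels contain the difference by which the gene was chosen. The deeper and shallower libraries number 5 and 3, under the minimum of 6 libraries for a correlation, so none was computed within them.

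**Figure D4:**
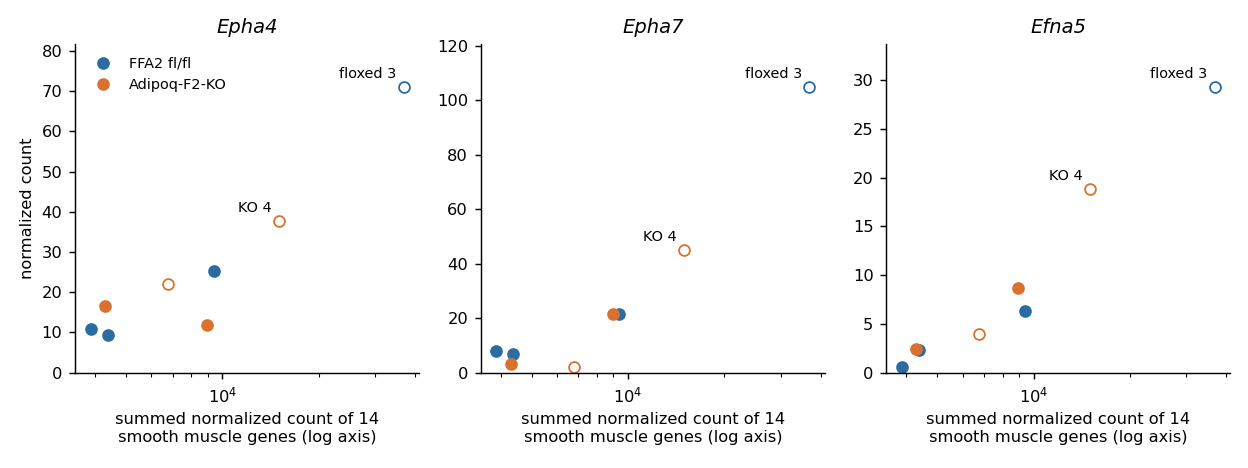
Normalized counts (y axis, from 0) of Epha4, Epha7 and Efna5 against the summed normalized count of 14 smooth muscle genes (x axis, log scale), 1 point per library, floxed in blue and Adipoq-F2-KO in orange, open where the library had fewer than 10000000 counts. Floxed library 3 and Adipoq-F2-KO library 4 are the highest on both axes in all 3 panels. The same libraries were also the highest for the blood vessel, fibroblast and enteric neuron and glia genes.

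Within genotypes, the genes whose level varied most like Epha2 were Racgap1, a regulator of cytokinesis, Fam162a, the kinase gene Ulk3, Dnaja3, a mitochondrial chaperone, and Mapk13, which encodes p38 delta. Their Pearson's r with Epha2 over the 8 libraries, after the mean of each genotype was subtracted from log2 values, was 0.97, 0.97, 0.97, 0.96 and 0.96, the highest of 10224 genes ranked. These are picks from a long ranking of 8 points, so they carry no test. Among members, r with Epha2 was 0.65 for Efnb1, 0.34 for Ephb4, 0.27 for Efna1, 0.05 for Epha1 and -0.12 for Efnb2, and the lowest was -0.66 for Epha4. Racgap1 had 71.7 to 88.2 normalized counts in floxed libraries and 94.0 to 115 in Adipoq-F2-KO libraries, so it varied with Epha2 inside each genotype while its genotype means differed in the opposite direction. All 4 of its Adipoq-F2-KO libraries were above all floxed libraries, an order seen for 1.10% of genes tested, with an adjusted p of 0.9998 (DESeq2).

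Among listed genes known to act with Eph receptors and ephrins, none of the 48 tested passed after adjustment. The list held adaptors, Src family kinases, proteases and phosphatases known from this signalling, and it had 49 genes in all. Log2 fold changes were positive for 28 and negative for 20, with a median of 0.01. By DESeq2, 0 had an adjusted p below 0.05, and by unadjusted p below 0.05 1 of 48 was higher and 1 was lower, near the 1.65% and 1.38% of all genes. Grb7, an adaptor of receptor tyrosine kinases, had 999, 889, 1037 and 803 normalized counts in floxed libraries and 1198, 1172, 1067 and 1126 in Adipoq-F2-KO libraries. All 4 Adipoq-F2-KO libraries of Grb7 were above all floxed libraries, as for 1.10% of all genes tested (log2 fold change 0.30, SE 0.11, unadjusted p = 0.00732, adjusted p = 0.9998, DESeq2). Crkl, an adaptor of the Crk family, averaged 797 ± 55.5 in floxed and 666 ± 83.6 in Adipoq-F2-KO libraries (SD, n = 4 each). For Crkl 2 of 4 Adipoq-F2-KO libraries were below all floxed ones (log2 fold change -0.25, SE 0.12, unadjusted p = 0.0367, adjusted p = 0.9998, DESeq2). Over 16 alternatives the unadjusted p was below 0.05 in 16 for Grb7 (log2 fold change 0.24 to 0.40) and in 10 for Crkl (-0.31 to -0.16, the last in the 5 deeper libraries).

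Most ERK output and feedback genes had a negative log2 fold change, and none passed the test after adjustment. These are genes that the ERK kinases switch on, among them phosphatases and Sprouty and Spred proteins that damp the pathway and ligands of the EGF receptor, and Eph receptors are known to alter ERK activity. Of 20 listed genes 17 were tested, and 15 had a negative and 2 a positive log2 fold change, with a median of -0.26 against -0.01 for all genes, of which 51.5% were lower. By DESeq2, 0 had an adjusted p below 0.05, while 4 of 17 were lower and 0 higher by unadjusted p below 0.05, against 1.38% and 1.65% of all genes. Other lists were as one-sided: 15 of 17 proliferation genes had a positive log2 fold change (3 by unadjusted p below 0.05), as had 9 of 9 macrophage and 9 of 9 B and plasma cell genes, while 9 of 10 enteroendocrine genes had a negative one, with 0 past the adjusted threshold in any of them. The direction of the smooth muscle list changed with the libraries and with the fit. With DESeq2, 14 of 14 genes were negative with all libraries (median -0.90), and 13 of 14 were positive without floxed library 3 (median 1.21). With limma-voom and all libraries, 12 of 14 smooth muscle genes were positive. Their part in the ERK values was not tested, apart from the smooth muscle covariate, with which 14 of 17 ERK genes were negative and 4 were lower by unadjusted p.

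Hbegf, a ligand of the EGF receptor, had 531, 500.2, 686 and 376 normalized counts in floxed libraries and 395, 392, 242 and 365 in Adipoq-F2-KO libraries (log2 fold change -0.57, SE 0.21, unadjusted p = 0.00724, adjusted p = 0.9998, DESeq2). The groups overlapped through floxed library 4. Phlda1, a gene induced by growth factors, had 138, 40.1, 98.3 and 94.4 normalized counts in floxed and 52.1, 42.2, 38.0 and 60.2 in Adipoq-F2-KO libraries (log2 fold change -0.94, SE 0.37, unadjusted p = 0.01, adjusted p = 0.9998, DESeq2). Floxed library 2 was as low as the Adipoq-F2-KO libraries, and without it the adjusted p of Phlda1 was 0.0293, whereas the other alternatives gave 0.335 to 1.0000. Spred2, an inhibitor of the pathway, had 708 to 794 normalized counts in floxed and 569.8 to 683 in Adipoq-F2-KO libraries without overlap, an order seen for 1.02% of all genes tested (log2 fold change -0.26, SE 0.11, unadjusted p = 0.0144, adjusted p = 0.9998, DESeq2). Ier3, an early response gene that is named here after its values were seen, had 46.0 to 56.5 and 29.2 to 39.1, also without overlap, against the same 1.02% (log2 fold change -0.59, SE 0.26, unadjusted p = 0.0224, adjusted p = 0.9998, DESeq2). Over 16 alternatives the unadjusted p was below 0.05 in 15 for Hbegf (log2 fold change -0.70 to -0.26, the last in the 5 deeper libraries), 13 for Phlda1 (-1.21 to -0.67), 12 for Spred2 (-0.30 to -0.21) and 10 for Ier3 (-0.70 to -0.51).

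The count of lower ERK genes and their median depended on the libraries and on the fit used. Among the 5 deeper libraries (floxed 1, 2 and 4, Adipoq-F2-KO 1 and 2), 12 of 17 had a negative log2 fold change, with a median of -0.15. In that DESeq2 fit 0 of 17 had an unadjusted p below 0.05. These 5 libraries had 0.774 to 3.95 normalized counts of Fabp6. Without floxed library 3, 13 of 17 were negative and 3 were lower by unadjusted p, with a median of -0.14. Without floxed library 4, 13 were negative and 2 lower, with a median of -0.15. With all libraries, limma-voom gave 14 negative and 3 lower (median -0.16). With at least 50 counts in 4 libraries, 12 of 15 were negative and 4 lower (median -0.13). Dusp6 and Spry2, feedback genes of the same list, had log2 fold changes of -0.14 (SE 0.21) and -0.32 (SE 0.21), and Myc had the highest at 0.30 (SE 0.29).

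**Figure D5:**
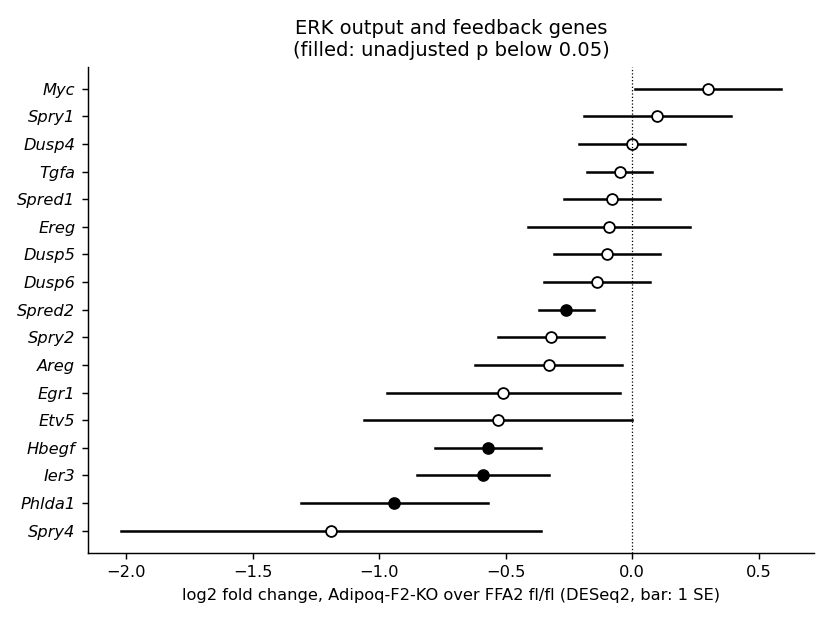
Log2 fold change of Adipoq-F2-KO over floxed libraries (x axis, bars 1 SE, DESeq2) for the 17 tested ERK output and feedback genes, sorted by value. Filled points are the 4 genes with an unadjusted p below 0.05, all of them negative, and none of the 17 had an adjusted p below 0.05.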

How the data were processed

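The authors trimmed adapters with Trimmomatic, aligned reads with STAR to GRCm38 (mm10) per the processing notes, and counted them per Ensembl gene with featureCounts. Tool versions and the strand setting are not given in the sources used here. The deposited values are raw read counts, 1 table for each of 8 libraries, neither normalized nor pooled by the authors. Of 56980 identifiers, 4855 were not in the GENCODE M21 annotation of GRCm38 used here for symbols and exon lengths (0.71% of counts), and 2147 of these are of a newer series of identifiers, so no coordinates are given for the counts. The 22 Eph and ephrin genes each matched 1 identifier. Promoter windows are from RefSeq (GRCm38.p6).

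Groups and replicate numbers came from the sample titles. The study gives 4 samples per group, the labels do not tie a library to a named animal, and p-values measure the spread between these samples. The descriptions number the libraries differently from the titles, and the title numbers were used. The 12 pairs of libraries within a genotype differed by a chi-square of 5.04 to 56.6 per gene, more than counting alone gives, and all were counted as separate samples. The chi-square cannot tell separate animals from repeated scrapings of the same animal.

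DESeq2 1.42.0 (R 4.3.3), the tool of the study, was run on genes that reached 10 counts in 4 or more libraries (15986 of 32652 with a count) with genotype as the only term, two-sided Wald tests and Benjamini-Hochberg adjustment over all genes tested. It gave no adjusted p for 8 genes. Alternatives were edgeR 4.0.16, limma-voom (limma 3.58.1), TMM factors, other filters, a replicate block, the smooth muscle level as a covariate, the 5 libraries with at least 10000000 counts, and leaving out each library. Errors of counts cover counting and the spread between libraries, since reads carried no molecular identifiers. Correlations used log2(summed count) and log2(count + 1) with two-sided exact permutation tests.

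The members and the gene lists were chosen with earlier results of these data known. Named genes were all members, the family genes that passed the filter, up to 3 per direction by smallest unadjusted p below 0.05 in the partner and ERK lists, and the 5 genes most like Epha2 with a mean normalized count of at least 50.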

Additional observations from a re-analysis of the deposited data

Results flagged for a closer look

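Of 70 sets of 4 libraries examined, 8 had a library whose gap to its nearest neighbour exceeded Dixon's 95% critical value, where chance at 1 in 20 gives 3.50. Among Eph genes these were Ephb3 in Adipoq-F2-KO library 3, the highest of its genotype at 40.0 normalized counts, and Epha7 in floxed library 3, the highest at 105. In floxed library 3 the summed normalized counts of 5 marker lists also stood above the other floxed libraries: smooth muscle at 36813, enteric neuron and glia at 454, adipocyte at 688, distal small intestine at 4205 and proliferation at 2455. The summed level of tuft cell genes stood apart in Adipoq-F2-KO library 1, at 1009.6. Thus 6 of the 8 came from floxed library 3. With the smooth muscle level as a covariate, the log2 fold change went from -0.38 to 0.07 for Epha4, from -0.96 to -0.28 for Epha7 and from -0.10 to 0.79 for Efna5. The part of the other marker levels was not tested.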

How the results depend on the processing

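The log2 fold change of Epha2, whose direction the choice of the gene fixed, ran from -0.75 to -0.51 over 16 alternatives, and 0 of the other 9 members had an adjusted p below 0.05 under any of them. Across all genes, 6 passed with DESeq2, 2 with edgeR (260 higher and 297 lower by unadjusted p), 1 with limma-voom, 3 with no filter, 36 with the smooth muscle covariate and 77 in the 5 deeper libraries. Leaving out 1 library each gave 2 to 104, with 104 without floxed library 3 and 21 without floxed library 2. The split of calls by unadjusted p was 264 higher and 221 lower, and 242 and 249 with TMM factors. Over the gene lists, 0 genes passed with all libraries, 1 in the deeper libraries and 0 to 3 when 1 library was left out, and of the marker correlations 0 passed with all libraries and 0 to 1 when 1 was left out. The fit with replicate number as a block called 11 genes over all and 1 over the lists (Noct). The numbers were not taken as pairs: same-numbered libraries correlated over 0.1 in 2 of 4 pairs (0.542, 0.294, 0.0113 and -0.423), and floxed library 3 correlated best with Adipoq-F2-KO library 4 (0.518). In that fit Efnb2 had a log2 fold change of 0.34 (unadjusted p = 0.00261, adjusted p = 0.747, DESeq2), against adjusted p of 0.464 to 1.0000 over its alternatives. The direction of Epha4 turned in 3 of 15 alternatives, of Ephb2 in 9 of 16, of Efna4 in 2 of 15 and of Ephb4 and Efnb1 in 1 of 16 each. Below 50 counts in 4 libraries, Epha4, Ephb3 and Efna4 were not tested. Among them the 95% interval of Epha4 ran from -1.65 to 0.89 on the log2 scale, with an SE of 0.65 that was 0.40 with the smooth muscle covariate, and these 3 genes had 4 to 72 raw counts in a library.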
